A study of Mus musculus with 16 samples.

Results

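An antibody against N6-methyladenosine (m6A) poorly recovered the RNA of 6 genes that adipose tissue expresses in quantity. These genes were followed across temperature, Mettl3 genotype and translation. They were Mmd, Rack1, Dstn, Cltc, Chchd2 and Tmem72, 6 of the 17883 genes in the deposited matrix, taken by gene name. They had been picked from the level in the m6A precipitate over that in the input RNA, so for these 6 genes this ratio and its differences between conditions are given as a description with no test. Input RNA entered the choice as the denominator of that ratio and as the measure of abundance. Differences of input RNA between conditions, and ribosome footprints, were tested. Adipose tissue of C57BL/6 mice (8 weeks of age) gave 16 libraries, 2 in each of 8 groups. Input and m6A libraries came from 3 conditions and footprint libraries from the latter 2. WT RT mice were METTL3 flox/flox and untreated. WT cold mice had the same genotype and were kept singly at 4 °C for 7 days. The mice labelled Mettl3 cko were METTL3 flox/flox Adipoq-Cre +/- and were kept in the same cold (cKO cold). The floxed allele was thus shared by all groups, the Cre was driven in adipocytes only, and no group was a cKO at room temperature or a Cre control without the floxed allele.

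m6A is written on mRNA by a complex whose catalytic subunit is METTL3, which acts together with METTL14. The mark lies mainly in long internal exons and around stop codons, is bound by YTH domain proteins, and is known for directing mRNA decay and translation. Short, stable mRNAs of housekeeping genes, those of ribosomal proteins among them, are known to carry little of it. In adipose tissue, cold turns on heat production in beige adipocytes, whose mitochondria multiply. The 6 genes have unrelated roles. Mmd encodes a membrane protein of the PAQR family, first known from maturing macrophages. Rack1 encodes a scaffold protein that sits on the small ribosomal subunit. Dstn encodes destrin, which severs and depolymerises actin filaments, and Cltc encodes the heavy chain of clathrin, the coat of endocytic vesicles. Chchd2 encodes a small twin CX9C protein of the mitochondrial intermembrane space, and Tmem72 a transmembrane protein known mainly from kidney.

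In the reference annotation (GRCm38.p6), Mmd lies on chromosome 11 at 90249276 to 90278573, Rack1 on chromosome 11 at 48800360 to 48806241, and Cltc on chromosome 11 at 86694352 to 86757567. Dstn lies on chromosome 2 at 143915331 to 143943324, Chchd2 on chromosome 5 at 129881161 to 129887470, and Tmem72 on chromosome 6 at 116691539 to 116716982. Rack1 holds the snoRNA genes Snord96a and Snord95 and overlaps LOC115485831, and Dstn overlaps Gm33804. A pseudogene, Chchd2-ps, is named after Chchd2. Whether the counting used strand or shared reads among copies is not given in the sources used here, so values of these 3 genes may hold reads of their neighbours or copy.

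Promoter sequences are shown for the 5 genes that had one in the RefSeq table, where Chchd2 had no entry. Each runs 5′ to 3′ from 120 bases before to 30 bases after the listed transcription start. Capitals mark GC boxes (GGGCGG, read on either strand) and, from the start itself, a C followed by at least 4 bases that are C or T, the tract that opens the mRNAs of the translation machinery.
Mmd: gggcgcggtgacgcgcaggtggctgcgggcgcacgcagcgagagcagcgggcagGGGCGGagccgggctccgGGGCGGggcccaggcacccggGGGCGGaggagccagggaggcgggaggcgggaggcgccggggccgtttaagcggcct
Rack1: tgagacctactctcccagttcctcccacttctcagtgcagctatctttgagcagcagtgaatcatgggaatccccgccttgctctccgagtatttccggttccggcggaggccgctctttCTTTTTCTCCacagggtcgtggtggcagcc
Dstn: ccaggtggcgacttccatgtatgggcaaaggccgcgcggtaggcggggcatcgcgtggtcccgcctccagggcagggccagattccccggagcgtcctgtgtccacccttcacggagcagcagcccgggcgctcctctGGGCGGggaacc
Cltc: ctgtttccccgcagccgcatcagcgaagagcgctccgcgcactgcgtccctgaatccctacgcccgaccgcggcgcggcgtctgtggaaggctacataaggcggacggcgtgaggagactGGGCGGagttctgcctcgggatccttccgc
Tmem72: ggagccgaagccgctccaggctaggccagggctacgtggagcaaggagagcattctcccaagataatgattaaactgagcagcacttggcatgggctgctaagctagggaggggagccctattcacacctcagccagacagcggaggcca

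These windows were chr11:90249356-90249505 (Mmd, plus strand), chr11:48800240-48800389 (Rack1, plus strand), chr2:143915211-143915360 (Dstn, plus strand), chr11:86757538-86757687 (Cltc, minus strand) and chr6:116716729-116716878 (Tmem72, minus strand). The Mmd and Tmem72 windows lie wholly inside the annotated genes, so their bases before the listed start are not upstream of the gene. The 5 windows did not look alike. Mmd held 3 GC boxes and 21 CpG, Dstn 1 and 14, Cltc 1 and 20, Rack1 0 and 7, and Tmem72 0 and 4, where the median over 32851 promoters was 4 CpG and 29.1% of promoters held a GC box. The Cltc box opens at the start itself, and the Dstn box lies after it. None of the 5 windows held CCAAT on either strand, found in 24.0% of all promoters, or, on either strand, the letters TATAAA, found in 7.16%. Rack1 alone opened with a pyrimidine tract, of 10 bases. Such a tract of 5 bases or more opened 2.50% of all promoters. It opened a listed promoter of 7 of 23 small ribosomal subunit protein genes with an entry. Only a C at the listed start itself was counted, so a tract with its start listed elsewhere can be missed. A match describes the letters and shows no binding.

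The libraries were deep for the 6 genes but differed in ways that touch the results. Recovered reads ran from 3895031 to 8673393 in input, 4883129 to 6426541 in m6A and at least 1676208 to 2461267 in footprint libraries. The 6 genes had 414 to 7436 reads each in input libraries and 67 to 948 in m6A libraries, and the 5 with footprints had at least 42 to 4764. Values are RPKM, the reads per kilobase of gene, scaled to each library's reads. The labels do not say whether replicates were separate animals, so p-values measure the spread between these libraries only, and the codes of the WT RT libraries belong to a number series separate from that of the cold groups, so that temperature cannot be told apart from whatever the codes mark. Adipocyte markers summed to 10178 to 15682 RPKM over the 6 inputs, and all 12 were above 0 in every condition. The targeted gene, Mettl3, had 5.24 and 3.66 RPKM in input from WT cold and 3.83 and 1.90 in input from cKO cold, which overlap, against footprint levels of 4.60 and 4.82 in WT cold, and of 8.99 and 5.22 under the cKO label. Whole-gene values do not single out a deleted exon, so cKO is used as a label throughout.

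In each of the 6 replicate pairs, RNA of all 6 genes was recovered in the m6A precipitate at 11.1% to 30.3% of its input level. Over the 3408 abundant genes, those with at least 10 RPKM in each input library, the median ran from 62.5% to 75.8%. Because every library is scaled to its own reads, these percentages rank mRNAs against each other and do not give the share of molecules that carry m6A. For each condition the ratio of m6A to input RPKM is given for replicate pair 1 and then pair 2.

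Rack1 had the steadiest ratio of the 6, at 14.6% and 16.1% at room temperature, 15.5% and 16.6% in WT cold, then 16.1% and 18.0% in cKO cold. Its input level moved over a wide range meanwhile, from 68.7 to 289 RPKM. The m6A level moved with it, from 42.0 and 44.3 RPKM at room temperature to 11.03 and 11.4 in WT cold, with 24.4 and 23.1 in cKO cold. Mmd was the most depleted at room temperature, with 13.1% and 11.1% there, 16.5% and 16.1% in WT cold, then 14.9% and 14.7% in cKO cold. Its m6A level was 16.2 and 13.9 RPKM, then 50.05 and 43.6, then 66.2 and 66.8, in the same order. Each of the 3 conditions was separate from the others for Mmd, with WT RT lowest. Such separation was common. Among abundant genes 65.3% did not overlap between WT RT and WT cold, 52.6% between WT cold and cKO cold, and 66.8% between WT RT and cKO cold.

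Tmem72 stood at 15.1% and 13.9% at room temperature, at 19.2% and 19.0% in WT cold and at 18.2% and 18.8% in cKO cold. Dstn stood at 17.0% in both WT RT pairs, at 24.3% and 22.3% in WT cold and at 23.3% and 27.2% in cKO cold. In both genes the WT RT pairs lay below all cold pairs. Cltc was the least depleted in WT cold, with 18.7% and 20.6% at room temperature, 25.8% and 30.3% in WT cold and 23.7% in both cKO cold pairs. Chchd2 went a different way, with 16.1% and 19.95% at room temperature, 17.6% and 23.2% in WT cold, then 12.9% and 11.6% in cKO cold. The cKO cold pairs of Chchd2 were the lowest and did not overlap the other 4.

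**Figure D1:**
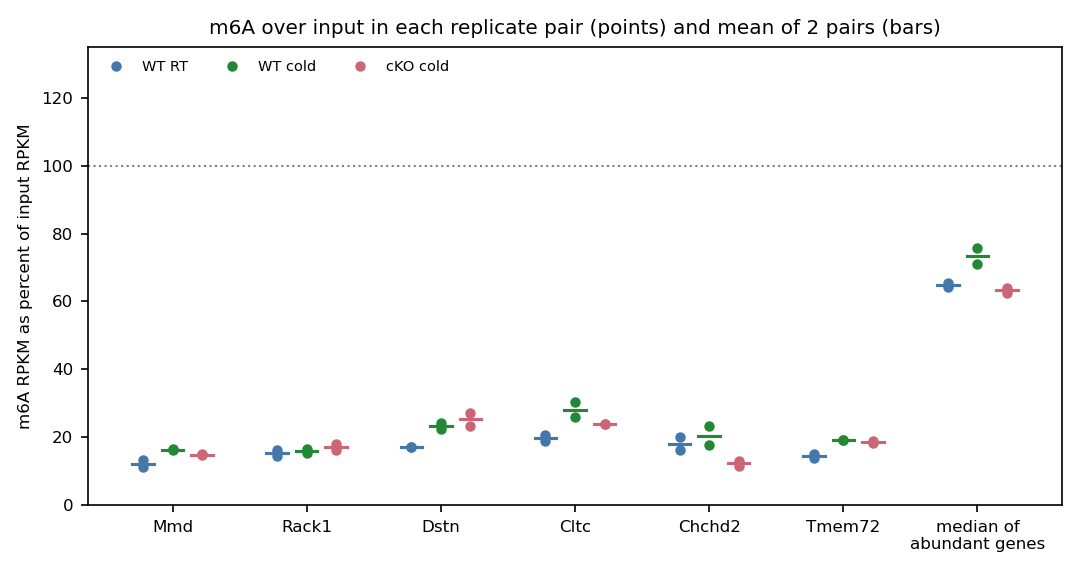
The m6A level as a percent of the input level (vertical axis, RPKM over RPKM) for each gene and for the median abundant gene, with 1 point per replicate pair, a bar at the mean of 2 pairs, and colours for WT RT, WT cold and cKO cold. All points of the 6 genes lie between 11.1% and 30.3%, below the median abundant gene at 62.5% to 75.8%, and the dotted line marks equal levels.

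Depletion placed the 6 genes near the bottom of the abundant genes but not at it. By the mean of log2(m6A + 1) minus log2(input + 1) over the 6 pairs, where rank 1 is the lowest of 3408, Mmd was rank 11 at -2.77, Rack1 rank 19 at -2.57, and Chchd2 rank 21 at -2.55. Tmem72 was rank 45 at -2.36, Dstn rank 111 at -2.11 and Cltc rank 133 at -2.03. The values over the 6 pairs overlapped between every 2 neighbours in this order. The 10 lowest were Prdx1 (a peroxiredoxin), Rpl30, Olfr774, Cox6c (a subunit of cytochrome c oxidase), Rpl9, Rps21, Ifi27l2a, Skp1a, Rps29 and Gm20594. Prdx1, the lowest, was at 4.18% to 7.31% of input. Among the 509 genes with at least 50 RPKM in each input library, Mmd, Rack1, Chchd2 and Cltc were at ranks 8, 11, 13 and 51, and Tmem72 and Dstn did not reach that level. Thus 133 of the 3408 abundant genes had a value at or below that of Cltc, the highest of the 6, and 29.7% had a value below -1.

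**Figure D2:**
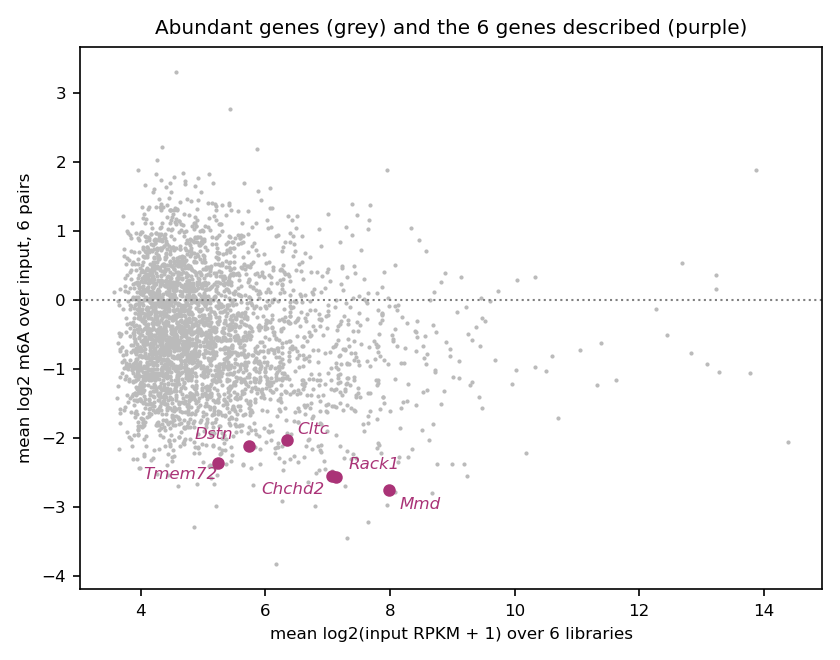
Mean log2 m6A over input over 6 pairs (vertical axis) against mean log2(input RPKM + 1) over 6 input libraries (horizontal axis) for 3408 abundant genes, in grey, with the 6 genes in purple. The 6 lie between -2.77 and -2.03 in the lower part of the cloud, with other genes below them.

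The genes whose 6 ratios were most like each member's were named by the smallest root mean square difference of log2 values over the 6 pairs. For Mmd these were Ssr3 (0.18), Rps27a (0.22) and Rack1 (0.25), and for Rack1 they were Sdcbp (0.14), Capza2 (0.16) and Cd36 (0.17). For Chchd2 they were Arl6ip1 (0.19), Pank3 (0.21) and Uqcrc2 (0.23), the last a subunit of respiratory complex III. Tmem72 was matched most closely, by Atp13a3 (0.06), Rps16 (0.09) and Rps12 (0.13). Dstn was matched by Gpcpd1, Clec2d and Tnks2, each at 0.12, and Cltc by Idh3a (0.11), Eif4a1 (0.12) and Glb1l2 (0.12).

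The genes that work beside each of the 6 had different levels of m6A over input. Their calls come from limma on all 12 input and m6A libraries and are given as background. In WT RT, WT cold and cKO cold, m6A was called below input in 29, 25 and 25 of 30 small ribosomal subunit protein genes. Of all 13062 genes tested 34.6%, 25.6% and 35.2% were called lower, a share not counted for abundant genes alone. By level without a call, m6A was below input in 65.8% to 75.9% of abundant genes over the 6 pairs. In the 3 conditions 0, 0 and 1 of these ribosomal genes were higher. A fit chosen after seeing the data paired each m6A library with the input of its replicate number. There 29, 25 and 25 ribosomal genes were lower, where 40.6%, 31.9% and 42.2% of all genes were. In that fit 0, 2 and 1 ribosomal genes were higher, where 21.3%, 19.4% and 16.1% of all genes were. Rps12 stood at 13.9% to 24.3% of input and Rps29 at 8.401% to 20.9%, close to Rack1, but Rps15 stood at 47.8% to 68.9%. Clta, the clathrin light chain that binds the product of Cltc, stood at 71.3% to 187%, in each pair above Cltc. Of 20 clathrin coat and adaptor genes, 12, 9 and 12 were lower and 0, 2 and 2 higher. With the pairing these were 13, 12 and 13 lower and 2, 4 and 4 higher. Cfl1, the cofilin closest to destrin in function, stood at 55.2% to 76.7%. Of 19 actin turnover genes 10, 8 and 9 were lower and 2, 2 and 2 higher, and with the pairing 12, 9 and 9 and 3, 3 and 3. The list called twin CX9C genes here and below also holds mitochondrial inner membrane proteins without that motif. Among its 18 genes 6, 4 and 7 were lower and 2, 4 and 2 higher. With the pairing 11, 5 and 8 were lower and 3, 4 and 2 higher. Cox6b1 stood at 58.5% to 77.3%, Chchd10 at 81.2% to 95.7% and Uqcrh, a subunit of respiratory complex III, at 123% to 213%. Of 8 PAQR genes 2, 2 and 4 were lower and 0 higher in each condition. Adipor1, an adiponectin receptor of that family, stood at 30.3% to 47.8%, and Paqr4 at 87.4% to 159%.

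Length did not set the 6 apart in one direction. The transcript lengths behind the RPKM values, recovered from them, were 915 bases for Chchd2, 1447 for Rack1, 1911 for Dstn, 2677 for Mmd, 6163 for Cltc and 17152 for Tmem72, where the median abundant gene had 2680. Rack1 and Chchd2 were thus short and Cltc and Tmem72 long, Tmem72 at the 99.8th percentile. Across the 3408 abundant genes, which share libraries and are no replicates, enrichment and transcript length had a Spearman correlation of 0.20, given as a description.

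Between conditions the ratio differed by small amounts beside the depletion itself. From WT RT to WT cold the mean log2 ratio was higher by 0.50 in Cltc, 0.47 in Tmem72, 0.39 in Dstn, 0.37 in Mmd, 0.14 in Rack1 and 0.13 in Chchd2, where the median abundant gene was higher by 0.17. The pairs of the 2 conditions did not overlap in 5 of the 6, and overlapped in Chchd2. Of all abundant genes 65.3% did not overlap, 50.9% with the higher ratio in WT cold. From WT cold to cKO cold the ratio was lower by 0.69 in Chchd2 (-2.28 to -2.96), against 0.16 in the median abundant gene. The other differences were -0.25 in Cltc, -0.15 in Mmd and -0.12 in Tmem72, without overlap, and 0.04 in Rack1 and 0.08 in Dstn, with overlap. Pairs did not overlap in 52.6% of abundant genes. The Chchd2 values came from 88 and 91 m6A reads in cKO cold and 173 and 223 in WT cold.

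Between WT RT and WT cold the input RNA of the 6 genes differed in both directions. Mmd and Chchd2 rose, Rack1, Tmem72 and Cltc fell, and Dstn did not pass the test. Thus 2 of 6 were called higher, where 6.52% of all 12667 genes tested were, and 3 of 6 lower, where 51.2% were. A change in a bulk tissue sample can reflect more or fewer cells of a type or more or less RNA per cell, and these cannot be told apart. Calls are those of limma on log2(RPKM + 1) at a Benjamini-Hochberg adjusted p under 0.05, and each value after ± is a standard error, with n = 2 libraries a group.

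Mmd had 123 and 125 RPKM at room temperature against 304 and 271 in WT cold, with no overlap. Its log2 fold change was 1.20 ± 0.12 (adjusted p = 0.000387). Chchd2 had 86.3 and 92.0 RPKM at room temperature against 177 and 164 in WT cold. Both cold libraries were well above both at room temperature, by 0.93 ± 0.12 (adjusted p = 0.00101). The scaffold gene Rack1 had 289 and 274 RPKM at room temperature but 71.3 and 68.7 in WT cold, and fell by 1.99 ± 0.13 on the log2 scale (adjusted p = 9.65e-05). It moved furthest of the 6. Tmem72 had 56.0 and 51.8 RPKM at room temperature but 25.0 and 23.5 in WT cold, and fell by 1.12 ± 0.12 (adjusted p = 0.000578). Cltc had 86.4 and 80.9 RPKM at room temperature but 65.0 and 61.5 in WT cold, lower in both cold libraries, with a log2 fold change of -0.40 ± 0.12 (adjusted p = 0.0236). Dstn had 41.9 and 42.1 RPKM at room temperature against 46.8 and 48.6 in WT cold, higher in both cold libraries, but its change of 0.18 ± 0.11 did not pass (adjusted p = 0.217).

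The median of all genes tested was itself -0.67 on the log2 scale in this comparison. Cltc therefore fell less than the median gene. With libraries scaled to their median gene ratio, Cltc was higher at 0.34 (adjusted p = 0.049) and Dstn rose by 0.91 (adjusted p = 0.00199). Then 4 of 6 were higher, where 19.1% of all genes were, and 2 lower, where 20.2% were. The calls of Mmd (1.95), Chchd2 (1.67), Rack1 (-1.25) and Tmem72 (-0.39) kept their direction and their side of the threshold under that scaling. Cltc was also not called without WT RT input replicate 1 (adjusted p = 0.207), without WT RT input replicate 2 (0.116), without WT cold input replicate 2 (0.0687) or with all 16 libraries in 1 fit (0.0562).

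**Figure D3:**
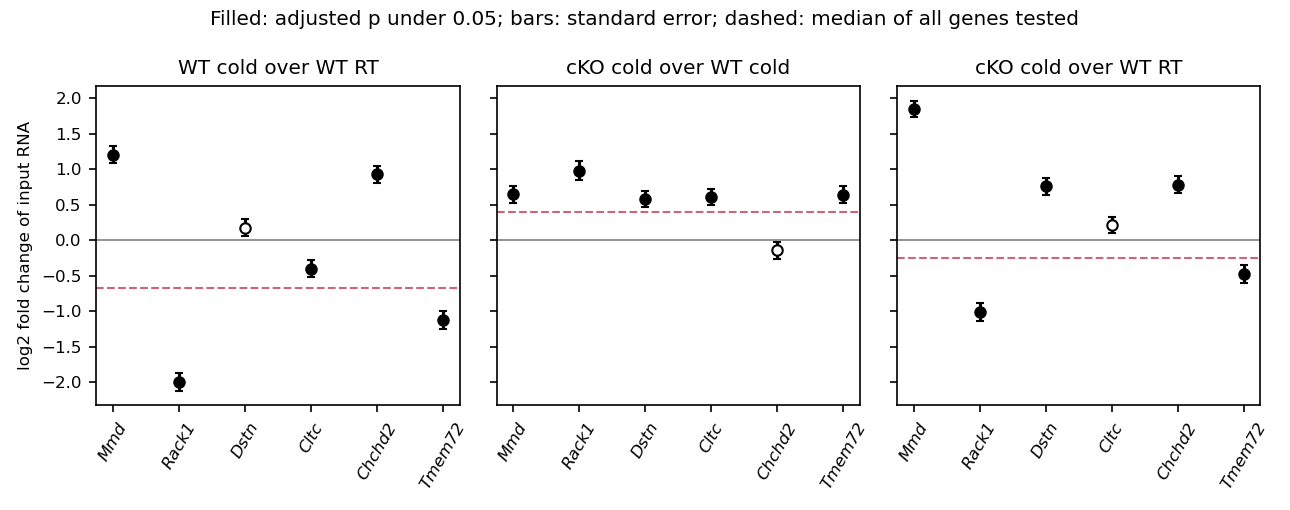
Log2 fold change of input RNA (vertical axis) for each gene in the 3 comparisons, with standard errors, n = 2 libraries a group, filled points for adjusted p under 0.05 and a dashed line at the median of all genes tested. In the cold Mmd (1.20) and Chchd2 (0.93) lie above 0 and Rack1 (-1.99) and Tmem72 (-1.12) below the median of -0.67. Between genotypes 5 points lie at 0.58 to 0.98, above a median of 0.40. Against median-scaled libraries Cltc turns positive in the cold (0.34) and the 5 points between genotypes are not called.

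Groups of genes with related roles were counted in the same way, by lists chosen with earlier results of these data known. Their counts stand beside 6.52% higher and 51.2% lower over all genes, and their medians beside the -0.67 of all genes. Of 30 small ribosomal subunit protein genes 0 were higher and 29 lower, with a median of -1.80, and Rps29 fell by 2.02 ± 0.12 (adjusted p = 8.03e-05), close to Rack1. Of 18 twin CX9C mitochondrial genes 10 were higher and 1 lower, with a median of 0.70, and Cox6b1, a subunit of cytochrome c oxidase, was higher by 1.01 ± 0.13 (adjusted p = 0.0011), close to Chchd2. Of 19 actin turnover genes 1 was higher and 16 lower (median -1.37). Dstn had a small positive value, while Cfl1 fell by 1.35 ± 0.13 (adjusted p = 0.000405) and Actb, the cytoplasmic actin, which fell by 2.29 ± 0.14 (adjusted p = 8.51e-05). Of 20 clathrin genes 0 were higher and 13 lower (median -0.61), and Clta fell by 0.82 ± 0.15 (adjusted p = 0.00423). Of 8 PAQR genes 2 were higher and 1 lower (median -0.35). Adipor2, an adiponectin receptor, rose by 0.67 ± 0.18 (adjusted p = 0.0159) and Paqr9 by 1.19 ± 0.31 (adjusted p = 0.0158). Of 17 genes that write, erase or read m6A 0 were higher and 14 lower (median -0.80). With libraries scaled to their median gene ratio, where 19.1% of all genes were higher and 20.2% lower, the counts were 0 higher and 26 lower of 30 for the ribosomal genes, 14 and 0 of 18 for the twin CX9C genes, and 3 and 12 of 19 for the actin genes. They were 4 and 3 of 20 for the clathrin genes, whose median turned positive at 0.11, and 2 and 2 of 17 for the m6A machinery. Of the 6 PAQR genes tested under that scaling 3 were higher and 0 lower, with a median that also turned positive, at 0.23.

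Markers of other cells moved in the same comparison. The 13 T, B and lymph node markers summed to 1210 to 1300 RPKM in WT RT inputs and to 2.21 to 2.27 in WT cold inputs, where Cd79a and Glycam1 were among those at 0, and all 13 were called lower. Macrophage markers summed to 961 to 1044 RPKM in WT RT and 260 to 267 in WT cold (9 of 14 tested lower), and fibroblast markers to 2175 to 2231 and 574 to 828 (6 of 12 lower). Adipocyte markers summed to 10178 to 10360 RPKM and 14913 to 15682 (7 of 12 higher, 1 lower). Their part in the changes of Mmd, Rack1, Chchd2, Cltc and Tmem72 was not tested.

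Between genotypes in the cold, 5 of the 6 genes were higher in the input RNA labelled cKO, and Chchd2 did not pass the test. Over all genes 23.6% were called higher and 2.92% lower, and the median of all genes was 0.40. Rack1 went from 71.3 and 68.7 RPKM in WT cold to 151 and 128 in cKO cold, without overlap, a log2 fold change of 0.98 ± 0.13 (adjusted p = 0.006). It remained below its WT RT level of 289 and 274 RPKM. Mmd went from 304 and 271 RPKM to 444 and 455, an increase of 0.65 ± 0.12 (adjusted p = 0.0124) on top of its rise in the cold. Tmem72 went from 25.0 and 23.5 RPKM to 37.8 and 39.1, higher by 0.64 ± 0.12 (adjusted p = 0.014). Cltc went from 65.0 and 61.5 RPKM to 99.5 and 94.7, higher by 0.61 ± 0.12 (adjusted p = 0.0133). Dstn, the actin-severing factor, went from 46.8 and 48.6 RPKM to 73.2 and 70.4, higher by 0.58 ± 0.11 (adjusted p = 0.0151), a call lost with all 16 libraries in 1 fit (adjusted p = 0.0507). The libraries of the 2 genotypes did not overlap in any of these 5 genes. The share of all genes without overlap was not counted for input RNA, so this has no background to stand beside. Chchd2 stood at 177 and 164 RPKM in WT cold and at 148 and 161 in cKO cold, lower in both cKO libraries with a log2 fold change of -0.14 ± 0.12 (adjusted p = 0.387; 95% interval -0.43 to 0.14).

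None of these 5 calls held when libraries were scaled to their median gene ratio. The values were then 0.49 in Rack1 (adjusted p = 0.0511), 0.16 in Tmem72 (0.4), 0.15 in Mmd (0.427), 0.12 in Cltc (0.51) and 0.09 in Dstn (0.664), while Chchd2 was called lower at -0.64 (adjusted p = 0.0231). The differences among the 6 genes hardly depended on the scaling, since it shifts all genes of a library nearly alike, and Chchd2 stood below the other 5 under both.

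The same lists were counted between genotypes, where 23.6% of all genes were higher and 2.92% lower, with a median of 0.40. Of 30 small ribosomal subunit protein genes 25 were higher and 0 lower in cKO cold (median 0.74), and Rps12 rose by 1.02 ± 0.16 (adjusted p = 0.00859). Of 19 actin turnover genes 10 were higher and 0 lower (median 0.80), with Actb at 1.35 ± 0.14 (adjusted p = 0.00447) and Cfl1 at 1.03 ± 0.13 (adjusted p = 0.00605). Of 20 clathrin genes 6 were higher and 0 lower (median 0.37), Clta among them at 0.84 ± 0.15 (adjusted p = 0.0121). Of 18 twin CX9C genes 0 were higher and 5 lower (median -0.38). Cox6b1 was lower by -0.47 ± 0.13 (adjusted p = 0.0433), and Chchd10, at -0.72 ± 0.28, did not pass (adjusted p = 0.0945). Of 8 PAQR genes 2 were higher and 0 lower, and of the 17 genes of the m6A machinery 5 and 0. With libraries scaled to their median gene ratio, where 6.09% of all genes were higher and 6.95% lower, 0 of 30 ribosomal genes were higher and 0 lower (median 0.25), 5 and 0 of 19 actin genes (median 0.38), and 0 and 10 of 18 twin CX9C genes (median -0.84). Under that scaling 0 clathrin genes were higher and 1 lower, with a median of -0.07, and 2 genes of the m6A machinery were higher and 0 lower. Of 6 PAQR genes 1 was then higher and 1 lower.

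Macrophage markers summed to 983 to 1926 RPKM in cKO cold inputs, against 260 to 267 in WT cold, and 12 of 14 tested were higher. Fibroblast markers summed to 1549 to 3118 RPKM, against 574 to 828, and 11 of 12 were higher. Adipocyte markers summed to 11952 to 13980, against 14913 to 15682, with 1 of 12 higher and 3 lower. Their part in the higher input levels of Rack1, Mmd, Tmem72, Cltc and Dstn was not tested.

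Set against WT RT, the cKO cold inputs gave 3 of 6 genes higher (8.38% of all genes) and 2 lower (24.7% of all genes), in a comparison that shares its libraries with the other two. Mmd was higher by 1.85 ± 0.12 (adjusted p = 0.000188), Chchd2 by 0.78 ± 0.12 (adjusted p = 0.00403) and Dstn by 0.76 ± 0.11 (adjusted p = 0.00391). Rack1 was lower, at -1.01 ± 0.13 (adjusted p = 0.00204). Tmem72, at -0.47 ± 0.12 (adjusted p = 0.0273), lost its call without any 1 of the 4 libraries compared (adjusted p of 0.0592 to 0.267) and with libraries scaled to their median gene ratio (-0.22, adjusted p = 0.202). The change of Cltc, 0.21 ± 0.12, did not pass (adjusted p = 0.196), though it did with median scaling (0.47, adjusted p = 0.0234). Dstn was not called without WT RT input replicate 1 (adjusted p = 0.0709) or WT RT input replicate 2 (0.0635), and Chchd2 not without WT RT input replicate 1 (0.0704).

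**Figure D4:**
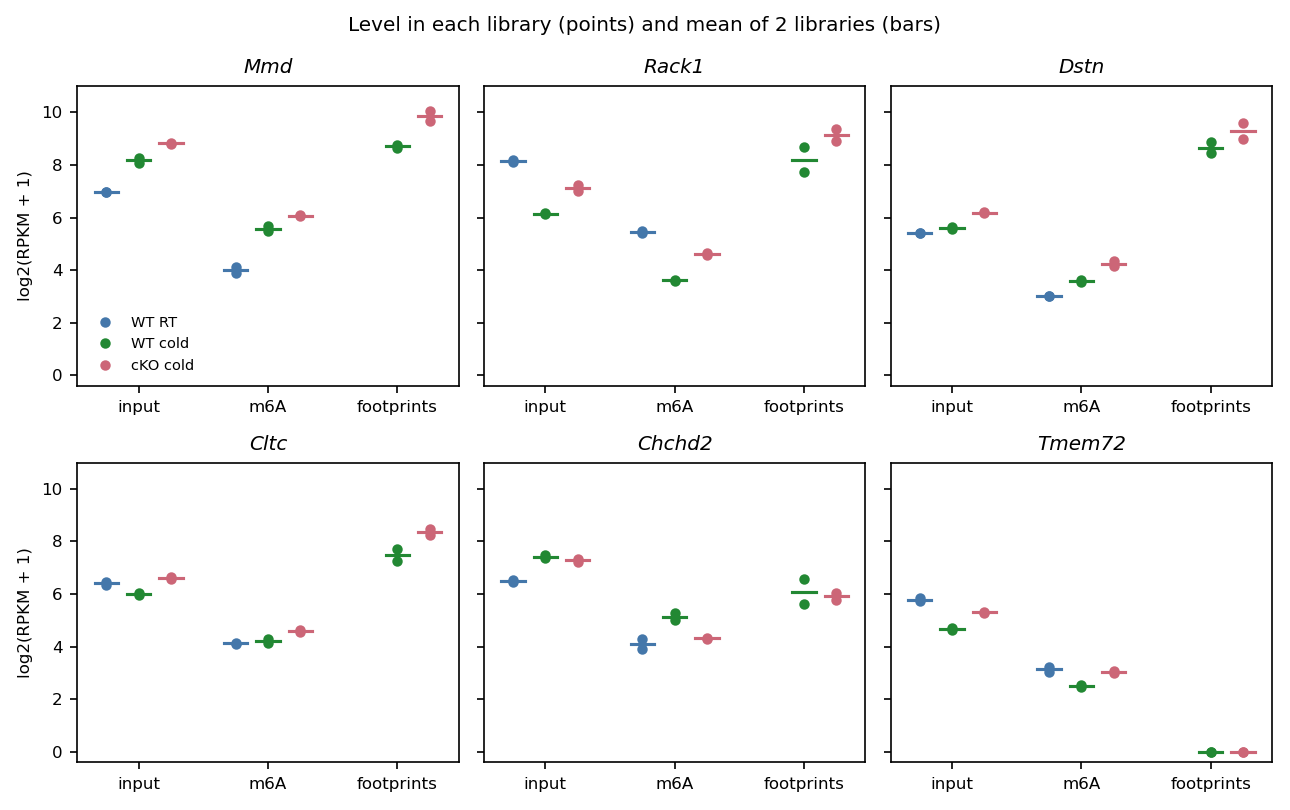
Level of each gene as log2(RPKM + 1) (vertical axis) in every library, by assay (input, m6A, footprints) and condition (colours), with a bar at the mean of 2 libraries. The m6A points of each gene lie below its input points, Mmd and Chchd2 inputs rise from WT RT to WT cold while those of Rack1 fall, and Tmem72 footprints lie at 0 in all 4 libraries.

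Ribosome footprints are the mRNA stretches that translating ribosomes protect, and their level over that of the input is taken as translational efficiency. Tmem72 had 0 footprint reads in all 4 libraries, while its input stood at 23.5 to 39.1 RPKM in the same conditions, from 1799 to 3723 reads. For a count of 0, an expected 3 reads over the 2 libraries of a condition were taken as an upper limit. That limit was 0.755 RPM of the recovered footprint reads in WT cold and 0.671 RPM in cKO cold. RPM is the RPKM scale without gene length. The limit is approximate, is no absolute bound and covers counting error only. Among the 3408 abundant genes 8, or 0.235%, had no footprint, namely Tmem72, Arxes2, Gm4631, Gm20431 and the olfactory receptor genes Olfr774, Olfr784, Olfr1385 and Olfr986. Footprint values are per coding length, and none could be recovered for Tmem72, so a gene without a counted coding region and a gene without ribosomes cannot be told apart. The tissue held little RNA of kidney, where Tmem72 is best known: 8 kidney markers in the matrix summed to 0.244 to 1.31 RPKM over the 6 inputs and none reached the level for testing, with Slc22a8 and Cdh16 at 0 in all 6.

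The footprint and input libraries of the cold conditions differed in their levels of marker genes of several cell types. The 13 T, B and lymph node markers summed to 646 to 762 RPKM in WT cold footprints, against 2.21 to 2.27 in WT cold inputs, and to 557 to 1688 RPKM in cKO cold footprints, against 7.10 to 11.6 in inputs. Macrophage markers summed to 3737 to 4523 RPKM in WT cold footprints, against 260 to 267 in inputs. In cKO cold these sums were 6028 to 10526 against 983 to 1926. Adipocyte markers summed to 60065 to 79460 against 14913 to 15682 in WT cold, then 56363 to 61110 against 11952 to 13980 in cKO cold. Fibroblast markers stood at 3163 to 3187 against 574 to 828, then 5920 to 7996 against 1549 to 3118. Endothelial markers stood at 346 to 363 against 268 to 277, then overlapped at 355 to 390 against 321 to 390. Footprint and input values use different lengths of a gene, but Glycam1 and Cd79a were at 0 in both WT cold inputs and above 0 in footprints. The part of this in the ratios that follow was not tested.

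The 5 other genes spanned a wide range of footprints over input. Dstn was highest, at 7.40 and 9.69 in WT cold, then 6.98 and 10.9 in cKO cold, above 92.6% to 97.4% of the abundant genes. The footprint level of Dstn was 346 and 471 RPKM in WT cold, then 511 and 769 in cKO cold. Rack1 had ratios of 5.75 and 3.07 in WT cold, then 3.18 and 5.16 in cKO cold, Cltc 3.18 and 2.50, then 3.04 and 3.78, and Mmd 1.43 and 1.48, then 2.41 and 1.81. The median abundant gene had 1.89 and 1.69, then 1.84 and 1.95. Rack1, Cltc and Dstn were above it in all 4 pairs, and Mmd below it in 3. Chchd2 was lowest of the 5, at 0.526 and 0.293 in WT cold, then 0.367 and 0.405 in cKO cold, where 7.42% to 14.3% of the abundant genes lay below it. Strong depletion of m6A was thus found at both ends of this range. Chchd2 had at least 42 to 107 footprint reads a library, the fewest of the 5.

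**Figure D5:**
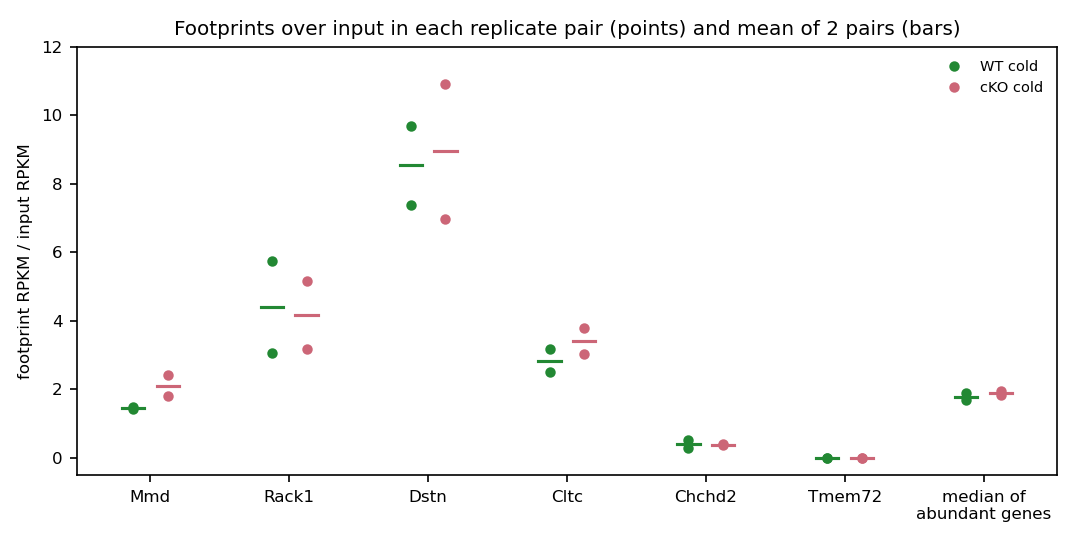
Footprint RPKM over input RPKM (vertical axis, linear) for each gene and the median abundant gene in WT cold and cKO cold, with 1 point per replicate pair and a bar at the mean of 2 pairs. Dstn lies at 6.98 to 10.9, Chchd2 at 0.293 to 0.526 and Tmem72 at 0, against a median abundant gene at 1.69 to 1.95. The 2 conditions overlap in every gene with footprints other than Mmd, and the share of all genes without overlap was not counted.

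Between genotypes, 1 of the 5 genes with footprints, Mmd, was called higher in cKO cold, where 5.61% of 12763 genes were higher and 1.54% lower and the median of all genes was 0.42. Mmd footprints stood at 436 and 400 RPKM in WT cold and at 1071 and 824 in cKO cold, without overlap, a log2 fold change of 1.17 ± 0.24 (adjusted p = 0.0301). The call was lost without WT cold footprint replicate 2 (adjusted p = 0.106), without cKO cold footprint replicate 1 (0.11), with no filter on low values (0.0533) and with libraries scaled to their median gene ratio (0.68, adjusted p = 0.155). Cltc stood at 206 and 154 RPKM in WT cold and at 302 and 358 in cKO cold, which do not overlap, and its 0.88 ± 0.23 did not pass (adjusted p = 0.0511). It passed in 4 of 10 alternatives, where the adjusted p ran from 0.00286 to 0.386. Rack1 stood at 410 and 211 RPKM, then at 482 and 660, with 0.94 ± 0.32 (adjusted p = 0.1). Rack1 passed without WT cold footprint replicate 1 (1.41, adjusted p = 0.036) and with all 16 libraries in 1 fit (adjusted p = 0.0168). Dstn, at 0.63 ± 0.26 (adjusted p = 0.146), passed in that 1 fit alone (0.0303). Chchd2 had 93.3 and 48.0 RPKM in WT cold, then 54.1 and 65.1 in cKO cold, which overlap, with -0.17 ± 0.30 (adjusted p = 0.731). The share of all genes without overlap was not counted for footprints, so the separation in Mmd and Cltc has no background to stand beside.

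Footprints over input did not differ detectably between genotypes in any of the 5 genes, by an interaction term in limma that called 0 of 12763 genes (0%), with 459 at an unadjusted p under 0.05. With all 16 libraries in 1 fit 4 genes were called higher and 2 lower. The change was 0.52 ± 0.34 in Mmd (95% interval -0.25 to 1.29), 0.27 ± 0.32 in Cltc (-0.46 to 0.998), 0.05 ± 0.37 in Dstn (-0.79 to 0.90), -0.05 ± 0.46 in Rack1 (-1.09 to 0.995) and -0.03 ± 0.43 in Chchd2 (-1.001 to 0.95), each with an adjusted p of 0.9996. The interval reached past 1 in size on the log2 scale in Mmd, Rack1 and Chchd2, and a p that misses the threshold does not show that the genotypes were alike.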

How the data were processed

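The deposited matrix holds RPKM values for 17883 genes in 16 libraries, 1 column each, computed by the authors. Reads were mapped with HISAT2 to mm10, per the submitters' processing notes, and the counting tool is not given in the sources used here. RPKM values are shares of each library's reads, so a change of the most abundant genes shifts all others. Whole reads were recovered for 100.0% of genes (tolerance 0.001 read), footprint reads as lower bounds. Input and m6A values were per transcript length and footprint values per coding length.

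Tests used limma 3.58.1 in R 4.3.3 on log2(RPKM + 1), with eBayes and a trend, two-sided, for genes of at least 1 RPKM in at least 2 libraries. Benjamini-Hochberg adjustment was over all genes, with a threshold of 0.05. The 6 inputs were fitted together (3 residual degrees of freedom), the 8 cold input and footprint libraries together (4), and, for calls of m6A over input in genes other than the 6, the 12 input and m6A libraries together (6, without pairing, or 3 with pairing). The fit of the 6 inputs was run on simulated data for WT cold over WT RT, with changes placed in well-expressed genes only. The footprint and m6A fits were not simulated. Log2 fold changes understate changes of low genes.

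Replicate numbers were checked for pairing. Deviations from group means over 8464 genes correlated at 0.30 to 0.66 between input and m6A libraries and at 0.32 to 0.38 between footprints and either within a condition, and at -0.05 to 0.07 across conditions. The numbers may thus pair libraries of 1 condition, which the labels do not state. With 2 libraries a group, each correlation rests on 1 difference between libraries, so it cannot settle the pairing. Alternatives were median-ratio scaling, a pseudocount of 0.1, no filter or one of 10 RPKM, all 16 libraries in 1 fit, a replicate block, and leaving out each library.

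The genes named were the 6 members, Mettl3, the 3 genes closest to each in m6A over input, the 10 lowest abundant genes, neighbours in the annotation, and up to 4 genes with the highest mean input from each list. The members and lists were chosen with earlier results of these data known. Endothelial markers (0 of 10 higher and 4 lower in the cold, 2 higher in cKO cold) and muscle markers (0 of 9 higher and 3 lower, then 0) were also counted. Promoter sequences are from RefSeq (GRCm38.p6), which matched 5 of the 6 genes.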

Additional observations from a re-analysis of the deposited data

How the results depend on the processing

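With median-ratio factors the median of all genes tested moved from -0.67 to -0.05 in WT cold over WT RT, from 0.40 to 0.01 in cKO cold over WT cold and from -0.24 to -0.02 in cKO cold over WT RT. Genes called then numbered 2392 higher and 2532 lower (826 and 6488 as deposited), 764 and 872 (2992 and 370), and 1682 and 1924 (1062 and 3130), and in footprints 120 and 355 (716 and 196). Cltc then reversed in the cold, to 0.34. In footprints a pseudocount of 0.1 RPKM gave 423 higher, no filter 253 higher and 119 lower, and 1 fit of all 16 libraries 3285 and 489. That 1 fit gave 4 higher and 2 lower for footprints over input. A filter of 10 RPKM, which tested fewer genes, gave 3784 lower in the cold. Beyond the filter, the cause of each difference was not tested.

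Leaving out 1 library at a time, with a lone library assumed to vary like the others, gave 425 to 789 genes higher and 2994 to 6447 lower in the cold, 1505 to 3437 and 224 to 369 in cKO cold over WT cold, 235 to 932 and 623 to 2898 in cKO cold over WT RT, and 44 to 760 and 48 to 175 in footprints. The footprint change of Chchd2 ran from -0.64 to 0.30. Footprints over input, called in none, ran from -0.52 to 0.43 in Rack1, -0.24 to 0.35 in Dstn and -0.50 to 0.45 in Chchd2, changing sign.

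With the replicate number as a block, genes called were 815 higher and 6451 lower in the cold, 2840 and 351 in cKO cold over WT cold and 1036 and 3055 in cKO cold over WT RT, and no call of the 6 genes changed in these or in footprints over input. A fixed block of pairs within a condition cannot give a footprint difference between conditions. A random replicate block, chosen after seeing the data, gave 792 higher and 206 lower in footprints, 1 higher in footprints over input, and a footprint call for Cltc (adjusted p = 0.04996). For m6A over input, a replicate block, also chosen after seeing the data, paired each m6A library with the input of its replicate number. It gave 5304, 4171 and 5518 genes lower in WT RT, WT cold and cKO cold, against 4524, 3341 and 4602 without it. Genes higher were 2776, 2528 and 2106, against 2088, 1792 and 1490. The smallest counts were 67 m6A reads for Dstn and 42 footprint reads for Chchd2.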
